A study of Mus musculus with 6 samples.

Results

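Chemokines are small secreted proteins that set up gradients which leukocytes follow into and through a tissue. They bind heptahelical receptors that signal through inhibitory G proteins, and are named by the spacing of their first cysteines (CC, CXC, CX3C and XC). Atypical receptors bind the same ligands but scavenge or transport them without classical G protein signalling. In fat, ligands of CCR2 are known for drawing monocytes into an expanding depot, and the CXCL12 to CXCR4 and CCL19, CCL21 and CXCL13 axes are known for keeping lymphocytes in place.

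The genes described here are the chemokines and chemokine receptors: every autosomal or X-linked gene whose GRCm38 symbol (GENCODE M21) begins with Ccl, Ccr, Cxcl or Cxcr and a digit, with Cx3cl1, Cx3cr1, Xcl1, Xcr1 and Ackr1 to Ackr4. The rule found 63 of the 46603 identifiers counted, namely 40 ligand genes (2 of them Ccl19 pseudogenes), 19 receptors and 4 atypical receptors. RNA was sequenced from visceral adipose tissue of untreated C57/Bl6 mice aged 18 months, in 3 libraries from wild-type mice (WT) and 3 from NM1 KO mice, which lack nuclear myosin 1, a nuclear isoform made from the Myo1c gene. The knockout allele and the cells that carry it are not described in the sources used here. The labels do not say that the numbered replicates came from separate animals, so p-values measure only a spread between samples that may be technical. In bulk tissue, fewer cells of a type and less RNA per cell cannot be told apart.

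Of the 63 genes, 60 were detected (1 count or more in some library) and 44 passed the filter on low counts and were tested. Total gene counts lay between 24677758 and 33537818 per library. Adipocyte markers were high in all libraries (Adipoq 1818 to 2549 counts per 1e6, CPM), as the tissue label says, and epididymal markers (Defb1, Adam7, Crisp1, Lcn5) summed to at most 0.0322 CPM. Myo1c lay between 759 and 801 CPM in WT and was at 452, 697 and 551 CPM in NM1 KO, and was not called (adjusted p = 0.151). This count covers all isoforms of the locus and does not check the knockout. Macrophage markers summed to between 1292 and 1792 CPM in WT and between 2255 and 2359 CPM in NM1 KO, with 2 of 7 called higher (Adgre1 and Cd68). The remaining ones, Csf1r, Fcgr1, Mertk, C1qa and C1qb, had positive fold changes and were not called (adjusted p between 0.0965 and 0.742). Vascular endothelial markers summed to between 628 and 801 CPM in WT and between 245 and 396 CPM in NM1 KO, with 3 of 6 called lower. Over all tested genes 4.25% were called. Single libraries stood apart in leukocyte markers. WT replicate 2 had a summed neutrophil marker level of 29.2 CPM against 5.05 to 14.4 CPM elsewhere, and NM1 KO replicate 1 a summed B cell marker level of 278 CPM against 28.1 to 106 CPM elsewhere. Below, CPM means are ± SD with n = 3 per genotype, each log2 fold change is that of NM1 KO over WT ± SE, and called genes are those with an adjusted p under 0.05 (edgeR, quasi-likelihood test, Benjamini-Hochberg adjustment over the 15828 genes tested).

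The promoters of 3 ligands the results turn on are shown first, as RefSeq gives them on GRCm38.p6, from 250 bases before to 50 bases after the start. Ccl3 is the ligand that differed between the genotypes, and Cxcl1 and Cxcl2 are neighbouring genes with unlike patterns over the libraries. Ccl3 lies at chr11:83649329-83649628 (minus strand), Cxcl1 at chr5:90890995-90891294 (plus strand) and Cxcl2 at chr5:90903649-90903948 (plus strand). Capitals mark matches, on either strand, to GGG and TTCC with any 3 bases (NNN) between them, a pattern of NF-kappaB sites, or to GAGGAA, a core of PU.1 sites; on the opposite strand the second reads TTCCTC, whose first letters can overlap the end of the NF-kappaB pattern. NF-kappaB is the factor that drives inflammatory genes, and PU.1 is a myeloid lineage factor.
Ccl3: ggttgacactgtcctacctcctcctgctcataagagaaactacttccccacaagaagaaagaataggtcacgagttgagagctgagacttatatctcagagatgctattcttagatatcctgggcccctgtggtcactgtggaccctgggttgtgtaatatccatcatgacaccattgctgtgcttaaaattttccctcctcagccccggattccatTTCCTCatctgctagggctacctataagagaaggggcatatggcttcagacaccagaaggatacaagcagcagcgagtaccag
Cxcl1: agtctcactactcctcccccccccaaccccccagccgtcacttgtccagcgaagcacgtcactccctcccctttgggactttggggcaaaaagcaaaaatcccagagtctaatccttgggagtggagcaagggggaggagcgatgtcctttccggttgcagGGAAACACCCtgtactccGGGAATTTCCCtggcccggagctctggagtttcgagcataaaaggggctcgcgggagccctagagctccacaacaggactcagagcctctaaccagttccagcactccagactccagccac
Cxcl2: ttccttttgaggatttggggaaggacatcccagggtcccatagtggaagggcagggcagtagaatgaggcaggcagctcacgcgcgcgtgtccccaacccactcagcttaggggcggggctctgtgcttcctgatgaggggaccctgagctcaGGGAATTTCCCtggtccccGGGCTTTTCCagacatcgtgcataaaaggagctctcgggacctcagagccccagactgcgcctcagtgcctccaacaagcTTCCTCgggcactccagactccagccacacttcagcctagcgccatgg
The Cxcl1 window held the NF-kappaB pattern at GGGAATTTCC, which the reverse pattern overlaps by all but 1 base, and once more at GGAAACACCC. The Cxcl2 window held the same GGGAATTTCC and a further match at GGGCTTTTCC, with a PU.1 match just after the start. The Ccl3 window held only the PU.1 pattern, which starts 33 bases before the start site. Over all 32817 promoter windows of this length, 5.56% held the NF-kappaB pattern and 28.3% the PU.1 pattern. Of the 53 windows of the genes described here, 17.0% held the first and 34.0% the second, and the differences were not tested. These windows belong to 46 genes, of which 9 held the first pattern and 15 the second. The 9 were Ccl1, Ccl9, Ccl20, Cxcl1, Cxcl2, Cxcl3, Cxcl10, Ccr3 and Ccr6. A match describes the letters and is not a measured binding site.

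Levels were compared between genes per kb of exon. In WT the most abundant transcript was Ccl6, a CC ligand of myeloid cells, at 382 CPM per kb, followed by Ccl8 (101), Ccl9 (94.2), Ccl11 (70.2), Ackr3 (48.3), Ccl7 (31.2), Ccl24 (26.8), Ccl2 (25.7) and Cxcl12 (24.9) in the same unit. In NM1 KO the same 9 genes led, with Ccl6 at 277 and Ccl8 at 164 CPM per kb. The ranges over libraries of Ccl8, Ccl9 and Ccl11 overlapped in WT, so these neighbours in the order do not differ beyond their spread, and neither do Ccl7, Ccl24, Ccl2 and Cxcl12. Ccl6 alone made up between 35.8% and 48.3% of the summed ligand CPM in each library. At the lower end of the tested genes stood Cxcl11 (0.117 in WT), Xcr1 (0.154) and Ccr9 (0.0284 CPM per kb). Cxcl11 is annotated as a polymorphic pseudogene in this strain's genome.

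**Figure D1:**
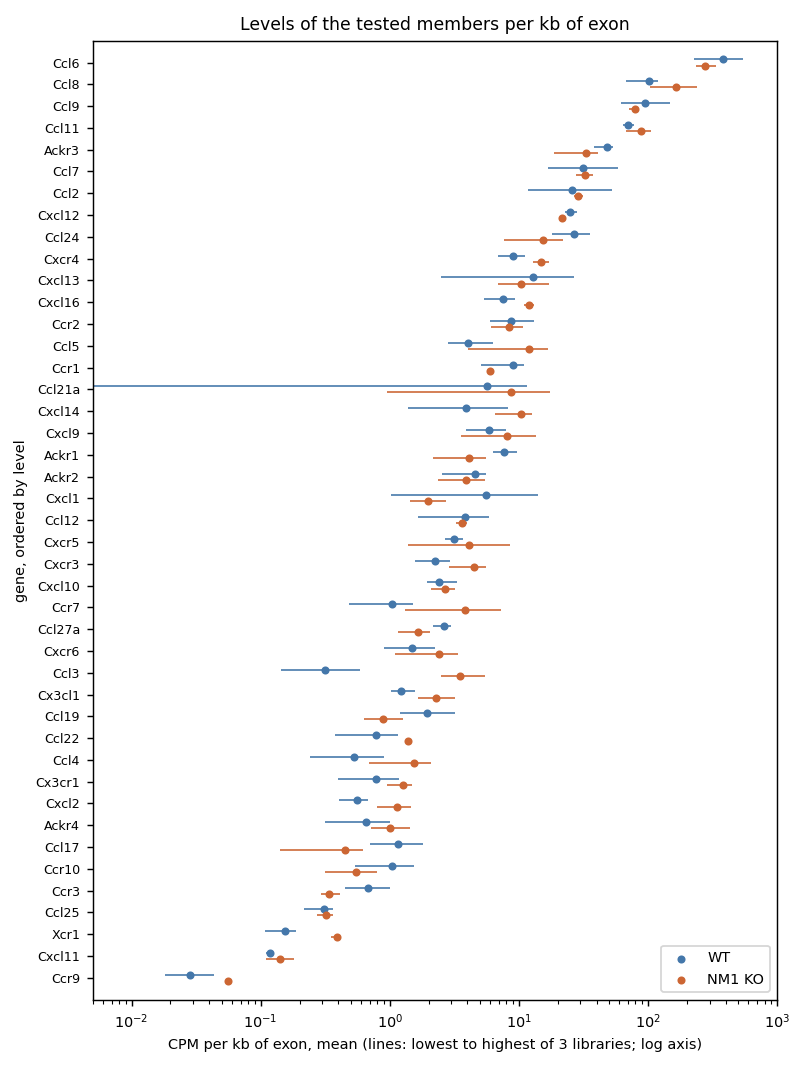
Mean CPM per kb of exon (log axis) of 43 of the 44 tested genes in WT and NM1 KO, ordered by level, with lines from the lowest to the highest of the 3 libraries of a genotype. Ccl6 leads at 382 in WT and 277 in NM1 KO, the ranges of Ccl3 lie apart, and the WT line of Ccl21a runs off the axis because 1 library had 0 counts.

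The genotypes were set side by side to ask which chemokine transcripts of the aged depot differ when nuclear myosin 1 is missing. Ccl3 rose, and it was the 1 gene of 44 tested that was called. Over all tested genes 4.25% were called, 2.79% higher and 1.47% lower, so the share among chemokines and receptors (2.27%) was near this background and is no result about the family. The median log2 fold change was 0.20 over the 44 genes and -0.0021 over all tested genes, with 27 values above and 17 below 0. At an unadjusted p under 0.05 there were 13 (over all tested genes 23.7%), 10 higher and 3 lower, where all tested genes gave 2053 higher and 1706 lower. The CPM ranges of the genotypes did not overlap for 8 genes that were higher in NM1 KO and 4 that were lower, or 27.3% together, against 29.9% of all tested genes (14.9% higher and 15.0% lower). The 8 were Ccl3, Ccl22, Cxcl2, Cx3cl1, Cxcl16, Ccr9, Cxcr4 and Xcr1, and the 4 were Ccl17, Ccl27a, Ccr3 and Ackr1. DESeq2 called 7 members, all higher (Ccl3, Ccl5, Cxcl16, Ccr7, Cxcr3, Cxcr4 and Xcr1), where it called 14.1% of all genes, and limma-voom called 4, all higher (Ccl3, Cxcl14, Cxcl16 and Xcr1), where it called 10.4%.

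**Figure D2:**
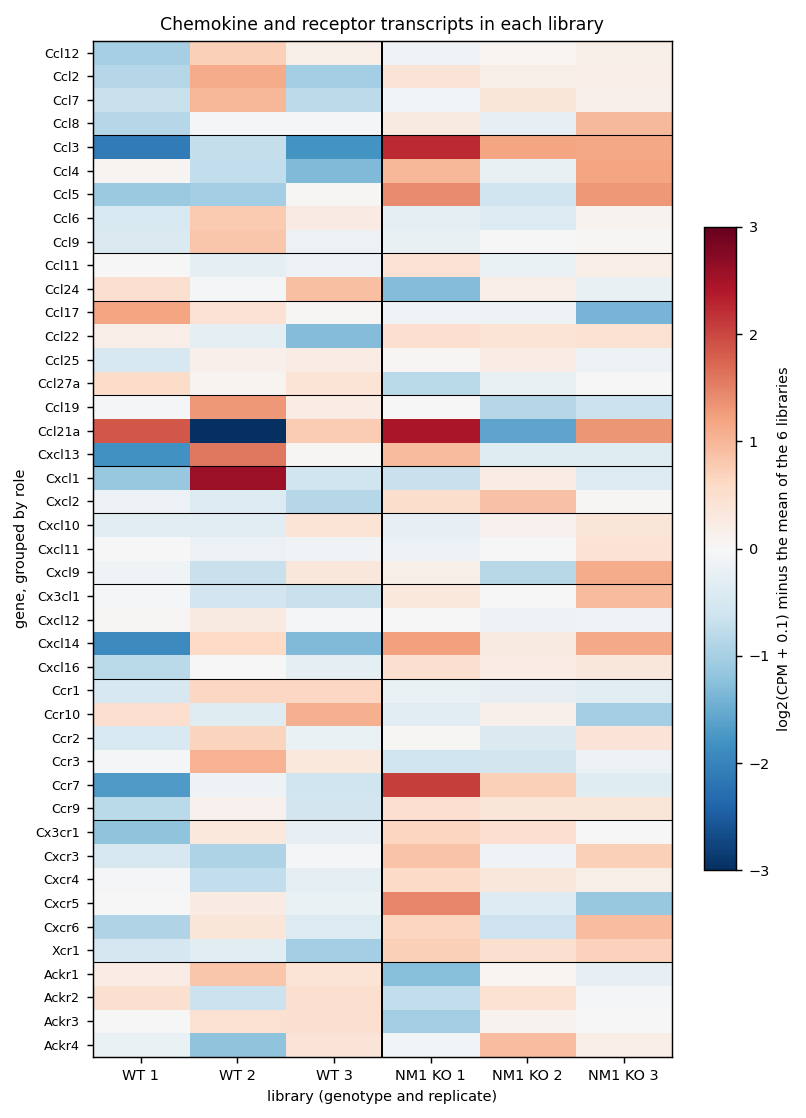
Heat map of log2(CPM + 0.1) of 43 of the 44 tested genes in the 6 libraries, each row centred on its mean and the colour scale limited to 3 units either way, with rows grouped by role. WT replicate 2 stands out in red for Cxcl1, Cxcl13, Ccl2 and Ccl7 and in blue for Ccl21a. NM1 KO replicate 1 stands out in red for Ccr7 and Cxcr5, and Ccl3 is blue in the 3 WT libraries and red in the 3 NM1 KO libraries.

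The inflammatory CC ligands Ccl3, Ccl4, Ccl5, Ccl6 and Ccl9, which attract monocytes, macrophages and T cells, included the called gene. Ccl3 (ENSMUSG00000000982, chromosome 11, 83647844 to 83649355), an inflammatory ligand made by activated macrophages, had 3, 14 and 4 reads in WT replicates 1 to 3 and 129, 64 and 52 reads in NM1 KO replicates 1 to 3. Per library this was 0.111, 0.448 and 0.160 CPM in WT and 4.15, 1.95 and 1.89 CPM in NM1 KO, so the lowest NM1 KO library lay well above the highest WT library. Ccl3 rose from 0.240 ± 0.182 to 2.67 ± 1.29 CPM, a log2 fold change of 3.42 ± 0.62 with an adjusted p of 0.0334. The call was lost when most single libraries were left out, as were most calls over all genes. The 673 genes called with all libraries became 37, 4 and 1 without WT replicate 1, 2 or 3. They became 244 and 5 without NM1 KO replicate 1 or 3. Without WT replicate 1, 2 or 3 the adjusted p was 0.0902, 0.0663 or 0.132, and without NM1 KO replicate 1 or 3 it was 0.0740 or 0.0786, with log2 fold changes between 2.97 and 4.26 (the last without WT replicate 2), while without NM1 KO replicate 2 it was 0.0288. Macrophage markers were higher in NM1 KO as well, with the sums given above. So were summed dendritic cell markers (38.8 to 51.9 CPM in WT, 85.4 to 188 CPM in NM1 KO) and NK cell markers (1.96 to 2.52 and 4.12 to 12.9 CPM). Fibroblast markers summed to 2295 to 3666 CPM in WT and 3977 to 4236 CPM in NM1 KO. The remaining marker lists overlapped between the genotypes or were lower in NM1 KO. Within WT, Ccl3 was highest in replicate 2, where the macrophage sum was lowest (1292 CPM). The part of these markers in the Ccl3 result was not tested.

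The other ligands of this group did not pass the test. Ccl4, a close relative whose gene lies beside Ccl3, was at 0.592, 0.288 and 0.160 CPM in WT and 1.19, 0.458 and 1.38 CPM in NM1 KO (log2 1.52 ± 0.62, adjusted p = 0.196), and NM1 KO replicate 2 lay within the WT range. Ccl5, made by T and NK cells among others, was at 2.70, 2.91 and 6.09 CPM in WT and 16.1, 3.91 and 14.8 CPM in NM1 KO (log2 1.57 ± 0.57, adjusted p = 0.155). Here too NM1 KO replicate 2 was the low one, and without it Ccl5 was called (log2 1.99, adjusted p = 0.0293, with 10.2% of all genes called in that fit). Summed T cell markers were also highest in NM1 KO replicates 1 and 3 and below the WT range in NM1 KO replicate 2, with 8.95, 13.5 and 12.5 CPM in WT and 29.6, 7.94 and 27.5 CPM in NM1 KO, and summed NK cell markers were at 1.96, 2.17 and 2.52 CPM and 8.08, 4.12 and 12.9 CPM. Their part in the Ccl5 values was not tested. Ccl6 was at 407, 976 and 672 CPM in WT and 466, 422 and 605 CPM in NM1 KO (log2 -0.46 ± 0.31, adjusted p = 0.410). Ccl9, a near relative of Ccl6, was at 187, 448 and 225 CPM in WT and 216, 250 and 261 CPM in NM1 KO (log2 -0.24 ± 0.31, adjusted p = 0.684). For both the WT libraries spanned the NM1 KO ones, with WT replicate 2 highest.

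Ligands of CCR2, the receptor that brings monocytes out of the blood, gave 0 calls among 4 by edgeR, DESeq2 and limma-voom, and in edgeR none had an unadjusted p under 0.05. Over all tested genes these tools called 4.25%, 14.1% and 10.4%, and 23.7% were under that unadjusted p. With only 4 genes, 0 calls are no result about the group. The group follows the gene cluster around Ccl2, and mouse CCL8 is known as a CCR8 ligand as well. Ccl2, the main monocyte attractant, was at 15.0, 59.4 and 13.3 CPM in WT and 35.9, 30.6 and 31.4 CPM in NM1 KO (log2 0.16 ± 0.55, adjusted p = 0.889). Ccl7, its neighbour and close relative, was at 14.7, 46.8 and 13.5 CPM in WT and 22.2, 30.1 and 26.1 CPM in NM1 KO (log2 0.06 ± 0.47, adjusted p = 0.954). In both genes WT replicate 2 was the highest of the 6 libraries and the remaining WT libraries were the lowest, so the WT spread took in every NM1 KO value. Without WT replicate 2 the log2 fold change was 1.20 for Ccl2 (adjusted p = 0.0582) and 0.89 for Ccl7 (adjusted p = 0.0859). Ccl8 was at 34.4, 60.9 and 59.8 CPM in WT and 75.6, 52.7 and 122 CPM in NM1 KO (log2 0.69 ± 0.34, adjusted p = 0.270 with edgeR, 0.183 with DESeq2 and 0.0793 with limma-voom), and Ccl12 between 0.887 and 3.13 CPM in all libraries (adjusted p = 0.929).

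Among ligands of CCR3, the eosinophil receptor, Ccl11 (eotaxin) was at 83.6, 69.8 and 74.3 CPM in WT and 114, 73.3 and 97.2 CPM in NM1 KO (adjusted p = 0.301). Ccl24, a further eotaxin, was at 34.6, 23.5 and 45.9 CPM in WT and 9.88, 28.4 and 21.2 CPM in NM1 KO (log2 -0.80 ± 0.40, adjusted p = 0.273). The ranges of both overlapped. Ccr3 itself was at 1.48, 3.26 and 1.92 CPM in WT and 0.965, 1.01 and 1.35 CPM in NM1 KO, lower in each NM1 KO library than in any WT library but not called (log2 -1.01 ± 0.39, adjusted p = 0.177).

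Ligands of CXCR2, the neutrophil receptor, set WT replicate 2 apart. Cxcl1 was at 1.92, 26.4 and 2.85 CPM in WT and 2.70, 5.13 and 3.28 CPM in NM1 KO, so 1 WT library held 11.1 times the mean of the other WT libraries. Its log2 fold change was -1.49 ± 0.95 (adjusted p = 0.382), and 0.64 (adjusted p = 0.409) without that library. Cxcl5 had 4, 78 and 0 reads in WT and 2, 4 and 3 in NM1 KO, and Cxcr2 had 0, 179 and 1 reads in WT and 0, 1 and 4 in NM1 KO, so neither passed the filter. Neutrophil markers were mixed. Of 6, Retnlg and S100a9 were highest in the same library, with Retnlg at 12.1 CPM and S100a9 at 8.41 CPM in WT replicate 2 against at most 3.21 and 0.962 CPM elsewhere. S100a8 was highest in NM1 KO replicate 1 (13.6 CPM, against 8.73 CPM in WT replicate 2), and Ly6g, Mpo and Camp had 0 counts in WT replicate 2. Their part in these values was not tested. Cxcl2, which lies next to Cxcl1 in the genome and carries the same NF-kappaB pattern in the window printed above, did not share the peak. The part of that pattern in these values was not tested. Cxcl2 was at 1.41, 1.18 and 0.842 CPM in WT and 2.35, 3.02 and 1.64 CPM in NM1 KO, higher in every NM1 KO library but not called (log2 1.03 ± 0.36, adjusted p = 0.148). The remaining ligands of this receptor were at or near 0, with at most 1 read per library for Cxcl3 and none for Cxcl15.

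**Figure D3:**
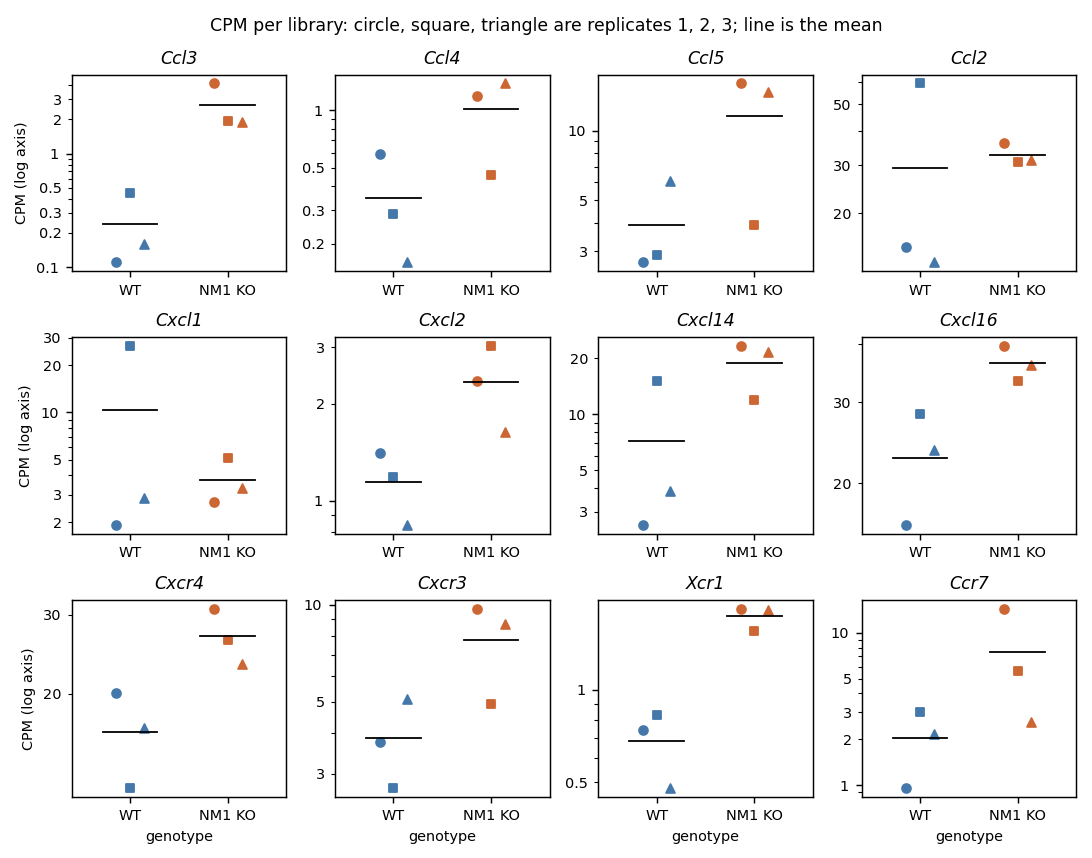
CPM (log axis) of 12 genes in each library, with circles, squares and triangles for replicates 1, 2 and 3 and a line at the mean of each genotype. Ccl3, Cxcl2, Cxcl16, Cxcr4 and Xcr1 lie apart between the genotypes, WT replicate 2 (square) lies above all other libraries for Ccl2 and Cxcl1, and NM1 KO replicate 2 falls to the WT level for Ccl4 and Ccl5.

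Ligands of CXCR3, which are induced by interferon gamma and attract T and NK cells, gave 0 calls among 3 by edgeR, DESeq2 and limma-voom, and in edgeR none had an unadjusted p under 0.05. Over all tested genes these tools called 4.25%, 14.1% and 10.4%, and 23.7% were under that unadjusted p. With only 3 genes, 0 calls are no result about these ligands. Cxcl9 was at 17.5, 11.8 and 24.1 CPM in WT and 21.3, 10.7 and 41.2 CPM in NM1 KO (adjusted p = 0.610), and NM1 KO held both the lowest and the highest library. Cxcl10 was at 4.40, 4.35 and 7.45 CPM in WT and 4.70, 6.10 and 7.18 CPM in NM1 KO (adjusted p = 0.787). Cxcr3, their receptor on T and NK cells, was at 3.77, 2.72 and 5.09 CPM in WT and 9.69, 4.94 and 8.71 CPM in NM1 KO (log2 1.01 ± 0.34, adjusted p = 0.132). NM1 KO replicate 2 lay just under the highest WT library, and without it Cxcr3 was called (adjusted p = 0.0469). Cxcr6, a receptor of tissue-dwelling T and NK cells, was at 1.74, 4.32 and 2.52 CPM in WT and 5.34, 2.14 and 6.52 CPM in NM1 KO (adjusted p = 0.433). Its ligand Cxcl16, a membrane-bound chemokine and scavenger receptor of macrophages, was at 16.3, 28.3 and 23.7 CPM in WT and 39.6, 33.4 and 36.2 CPM in NM1 KO, higher in every NM1 KO library (log2 0.68 ± 0.20, adjusted p = 0.106). The exons of Cxcl16 overlap those of Zmynd15, so its count is uncertain where strand was not used. Exons also overlap for Cxcl10 (with Art3), Cxcl11 (Gm2673), Ccl25 (Elavl1), Cxcr5 (Bcl9l), Cx3cr1 (Gm33858), Ackr4 (Acad11) and Xcl1 (Gm20743). What this did to their counts was not tested.

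Ligands and receptors that place lymphocytes had wide ranges within a genotype, and none was called by edgeR. Ccr7, the receptor of naive T cells and migrating dendritic cells, was at 0.961, 3.00 and 2.16 CPM in WT and 14.4, 5.59 and 2.59 CPM in NM1 KO (log2 1.87 ± 0.68, adjusted p = 0.155). NM1 KO replicate 3 lay inside the WT range, and the log2 value was 1.01 without NM1 KO replicate 1. Cxcr5, the follicle-homing receptor of B cells, was at 10.2, 12.2 and 8.98 CPM in WT and 28.6, 7.87 and 4.59 CPM in NM1 KO (log2 0.39 ± 0.62, adjusted p = 0.741). Without NM1 KO replicate 1, the library with the high B cell markers, the sign turned (log2 -0.73, adjusted p = 0.267). The part of the B cell markers in this was not tested. Cxcl13, the ligand of CXCR5, peaked elsewhere, at 2.85, 30.8 and 10.5 CPM in WT and 19.8, 7.90 and 7.91 CPM in NM1 KO (adjusted p = 0.841). Its log2 fold change turned from -0.31 to 0.83 without WT replicate 2 (adjusted p = 0.538).

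The CCR7 ligands are encoded in a block of chromosome 4 with near-identical copies, so their counts are uncertain. Over the whole family, 7 further symbol matches lay on unplaced scaffolds, outside the rule. Ccl21a was at 10.1, 0 and 4.61 CPM in WT and 15.1, 0.824 and 6.85 CPM in NM1 KO (log2 0.64 ± 1.39, adjusted p = 0.816). The 0 counts in WT replicate 2 allow up to 0.0959 CPM (3 counts, counting error only), and the libraries within each genotype spanned a wider range than the genotype means. Ccl19 was at 1.04, 2.78 and 1.28 CPM in WT and 1.09, 0.549 and 0.656 CPM in NM1 KO (log2 -1.15 ± 0.50, adjusted p = 0.219). The pseudogene Ccl19-ps1 had 6, 2 and 1 reads in WT and 0 in each NM1 KO library, too few to test. Ccl27a, a CCR10 ligand from the same block whose exons overlap Il11ra1, was at 7.14, 5.15 and 6.53 CPM in WT and 2.74, 4.18 and 4.88 CPM in NM1 KO, lower in every NM1 KO library (log2 -0.67 ± 0.28, adjusted p = 0.195). Ccr10 was at 1.77, 0.927 and 2.64 CPM in WT and 0.933, 1.37 and 0.547 CPM in NM1 KO (adjusted p = 0.332). The CCR4 ligands Ccl22 and Ccl17 had fold changes of opposite sign, and neither was called. Ccl22 was at 2.70, 1.92 and 0.882 CPM in WT and 3.35, 3.11 and 3.21 CPM in NM1 KO (log2 0.81 ± 0.41, adjusted p = 0.275), and Ccl17 at 0.924, 0.511 and 0.361 CPM in WT and 0.322, 0.305 and 0.0729 CPM in NM1 KO (log2 -1.33 ± 0.64, adjusted p = 0.257). Ccl25, the thymus and gut ligand of CCR9, was between 1.63 and 2.72 CPM in all libraries.

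The CXCL12 axis joins a stromal ligand to a signalling and a scavenging receptor, and edgeR called none of them. Cxcl12, a stromal chemokine that retains leukocytes and progenitors, was at 195, 229 and 185 CPM in WT and 190, 170 and 173 CPM in NM1 KO (log2 -0.19 ± 0.12, adjusted p = 0.359), and the ranges overlapped. Its signalling receptor Cxcr4 was at 20.1, 12.4 and 16.8 CPM in WT and 30.9, 26.3 and 23.3 CPM in NM1 KO. Every NM1 KO library was higher, but Cxcr4 was not called (log2 0.71 ± 0.20, adjusted p = 0.0937), while DESeq2 called it (adjusted p = 0.0234). Its scavenging receptor Ackr3 was at 129, 178 and 179 CPM in WT and 63.0, 138 and 129 CPM in NM1 KO (log2 -0.56 ± 0.30, adjusted p = 0.302), with NM1 KO replicate 1 lowest. Cxcl14, an epithelial and stromal chemokine, was at 2.55, 15.0 and 3.89 CPM in WT and 23.2, 11.9 and 21.7 CPM in NM1 KO (log2 1.40 ± 0.64, adjusted p = 0.242). Its ranges overlapped through WT replicate 2, and without that library the log2 fold change was 2.56 (adjusted p = 0.0683).

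Of the remaining receptors, Xcr1, which marks cross-presenting dendritic cells, came nearest to a call after Ccl3. It was at 0.740, 0.831 and 0.481 CPM in WT and 1.83, 1.56 and 1.82 CPM in NM1 KO, so the genotypes did not overlap (log2 1.33 ± 0.35, adjusted p = 0.0768). Dendritic cell markers were mixed, with 1 of 4 called higher (Itgax), where 4.25% of all tested genes were called. Flt3 was at 2.55, 3.84 and 1.20 CPM in WT and 3.03, 5.07 and 3.21 CPM in NM1 KO (log2 0.57, adjusted p = 0.480). Clec9a was at 3.36, 3.26 and 2.44 CPM in WT and 2.70, 1.65 and 3.50 CPM in NM1 KO (log2 -0.21, adjusted p = 0.742). Zbtb46 was at 20.1, 19.2 and 27.6 CPM in WT and 11.1, 16.4 and 16.9 CPM in NM1 KO (log2 -0.59, adjusted p = 0.162). Cx3cr1, the fractalkine receptor of monocytes and resident macrophages, was at 1.77, 5.31 and 3.57 CPM in WT and 6.66, 6.10 and 4.30 CPM in NM1 KO (adjusted p = 0.353). Its ligand Cx3cl1 was at 6.18, 4.32 and 4.01 CPM in WT and 7.98, 6.53 and 12.6 CPM in NM1 KO, higher in every NM1 KO library (log2 0.90 ± 0.30, adjusted p = 0.134). Ccr2 was at 40.2, 87.9 and 48.6 CPM in WT and 57.2, 41.1 and 72.1 CPM in NM1 KO (log2 -0.05 ± 0.32, adjusted p = 0.938). Ccr1, a receptor of CCL3 and CCL5, was at 14.5, 31.0 and 30.7 CPM in WT and 17.4, 17.0 and 16.0 CPM in NM1 KO (log2 -0.60 ± 0.28, adjusted p = 0.253). Ccr1 was not called, and its ranges overlapped. Ccr9, a gut-homing receptor, was higher in every NM1 KO library at levels between 0.185 and 0.611 CPM (adjusted p = 0.275), and its exons overlap other genes, Slc6a20a among them. Among the 13 tested receptors edgeR called 0, with 4 higher and 1 lower at an unadjusted p under 0.05, while DESeq2 called 4 and limma-voom 1. The shares over all tested genes were 23.7% at that unadjusted p, 14.1% with DESeq2 and 10.4% with limma-voom, and the differences from these shares were not tested.

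Among the other atypical receptors, Ackr1, the chemokine transporter of venules and red cells, was at 8.87, 13.5 and 10.1 CPM in WT and 3.06, 7.87 and 6.30 CPM in NM1 KO. Every NM1 KO library was lower, with a log2 fold change of -0.91 ± 0.36 and an adjusted p of 0.180. Its exons overlap Cadm3. Vascular endothelial markers, summed above, and the erythroid markers Hba-a1, Hbb-bs and Alas2, which summed to between 831 and 934 CPM in WT and between 381 and 723 CPM in NM1 KO, were lower in the same libraries, and their part in the Ackr1 values was not tested. Ackr2, a scavenger of inflammatory CC ligands, was at 17.3, 7.90 and 17.3 CPM in WT and 7.43, 17.1 and 11.9 CPM in NM1 KO (adjusted p = 0.767). Ackr4, a scavenger of CCL19 and CCL21, was at 3.55, 1.69 and 5.37 CPM in WT and 3.83, 7.78 and 4.66 CPM in NM1 KO (adjusted p = 0.455). Among the 4 atypical receptors edgeR, DESeq2 and limma-voom called 0, with 1 lower at an unadjusted edgeR p under 0.05. Over all tested genes these tools called 4.25%, 14.1% and 10.4%, and 23.7% were under that unadjusted p. The counts among 4 genes are therefore no result about this group.

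**Figure D4:**
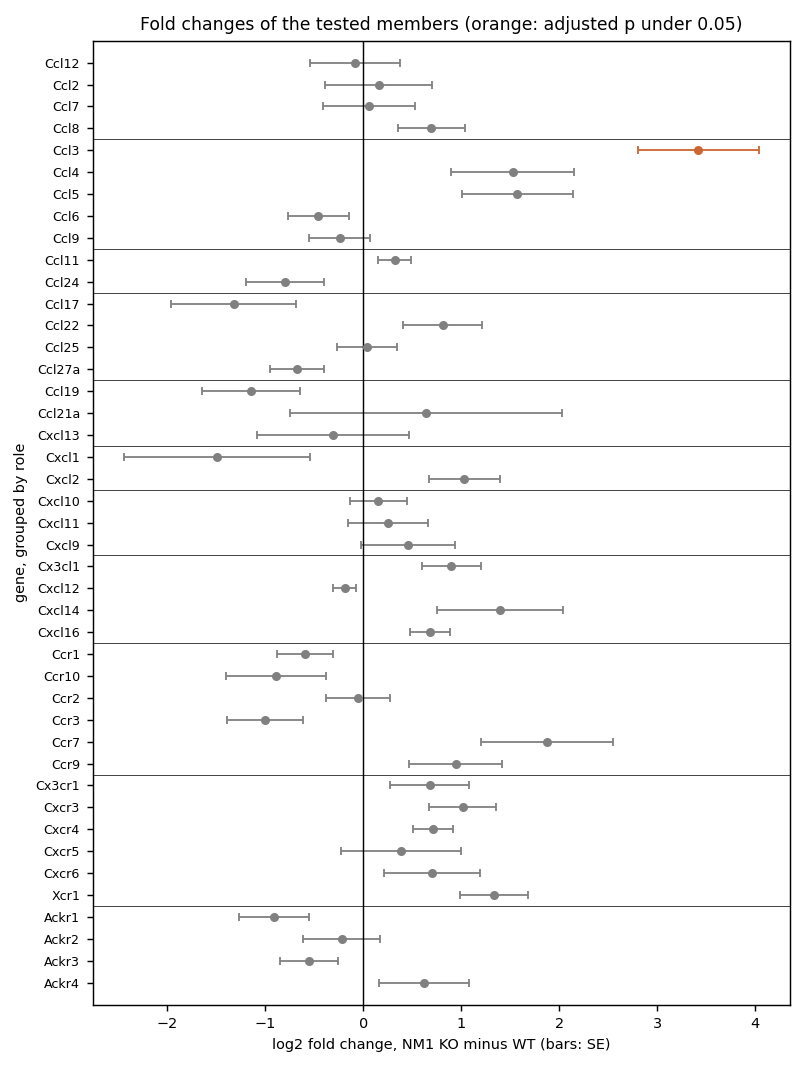
Log2 fold change (NM1 KO minus WT) of 43 of the 44 tested genes with SE bars, grouped by role. Ccl3, at 3.42, is the 1 gene with an adjusted p under 0.05 (orange), and the remaining values lie between -1.49 (Cxcl1) and 1.87 (Ccr7).

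The 19 genes that did not pass the filter had few reads, apart from 1 library. Ccl20, Ccl21b and Cxcl15 had 0 counts in every library, which allows up to 0.120 CPM in the shallowest one. Ccr6, a receptor of B cells and helper T cells, had 1, 9 and 0 reads in WT and 36, 6 and 2 in NM1 KO, with its peak in the library of high B cell markers. Xcl1, the XCR1 ligand made by NK and T cells, had 9, 5 and 6 reads in WT and 7, 2 and 22 in NM1 KO, and Ccl1, the CCR8 ligand, had 0 in WT and 7, 0 and 1 in NM1 KO. Ccl26, Ccl27b, Ccl28, Ccl19-ps3, Cxcl17, Ccr1l1, Ccr4, Ccr8 and Cxcr1 had at most 15 reads in any library. In a fit without the filter, 0 of these genes were called by edgeR, and 1 (Ccl19-ps1, lower) had an unadjusted p under 0.05. That fit called 917 of all 26398 genes.

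WT replicate 2 stood apart in many of these genes. It was the highest of the 6 libraries for 13 of the 44 genes, or 29.5%, against 20.5% of all tested genes. NM1 KO replicate 1 was highest for 14 (24.7% of all tested genes), replicates 2 and 3 for 2 and 7 (15.8% and 9.81%), and WT replicates 1 and 3 for 3 and 5 (13.9% and 15.3%). WT replicate 2 held at least 2 times the mean of the other WT libraries for 11 of them (25.0%), where 3.50% of all tested genes did, namely Ccl2, Ccl3, Ccl7, Ccl9, Ccl12, Ccl19, Cxcl1, Cxcl13, Cxcl14, Ccr9 and Cxcr6. WT replicate 1 was at least 2 times below the mean of the other WT libraries for 11 genes (25.0%, against 3.77% of all tested genes). That mean includes WT replicate 2, and Ccl2, Ccl3, Ccl7, Ccl12, Cxcl1, Cxcl13 and Cxcl14 were in both lists. Ccl2 and Ccl7 were lower still in WT replicate 3. The remaining genes were Ccl6, Ccr1, Ccr7 and Cx3cr1. Within NM1 KO, replicate 1 held at least 2 times the mean of the other NM1 KO libraries for 5 genes (11.4%, against 5.93% of all tested genes), which were Ccl3, Ccl21a, Cxcl13, Ccr7 and Cxcr5. Without WT replicate 2, 13 of the 44 genes (29.5%) were higher in every NM1 KO library than in either WT library, against 20.0% of all genes in that fit. Another 7 (15.9%) were lower in every one, against 20.7% of all genes. The differences from these shares were not tested. Ccl2, Ccl7, Cxcl14, Ccr7 and Cx3cr1 joined the higher ones. That fit called 0 of the 44 genes and 0.0247% of all genes, so it gives values and hardly any calls. The sign of the fold change turned for Ccl9, Ccl12, Cxcl1, Cxcl13 and Ccr2, all of which were not called in either fit.

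**Figure D5:**
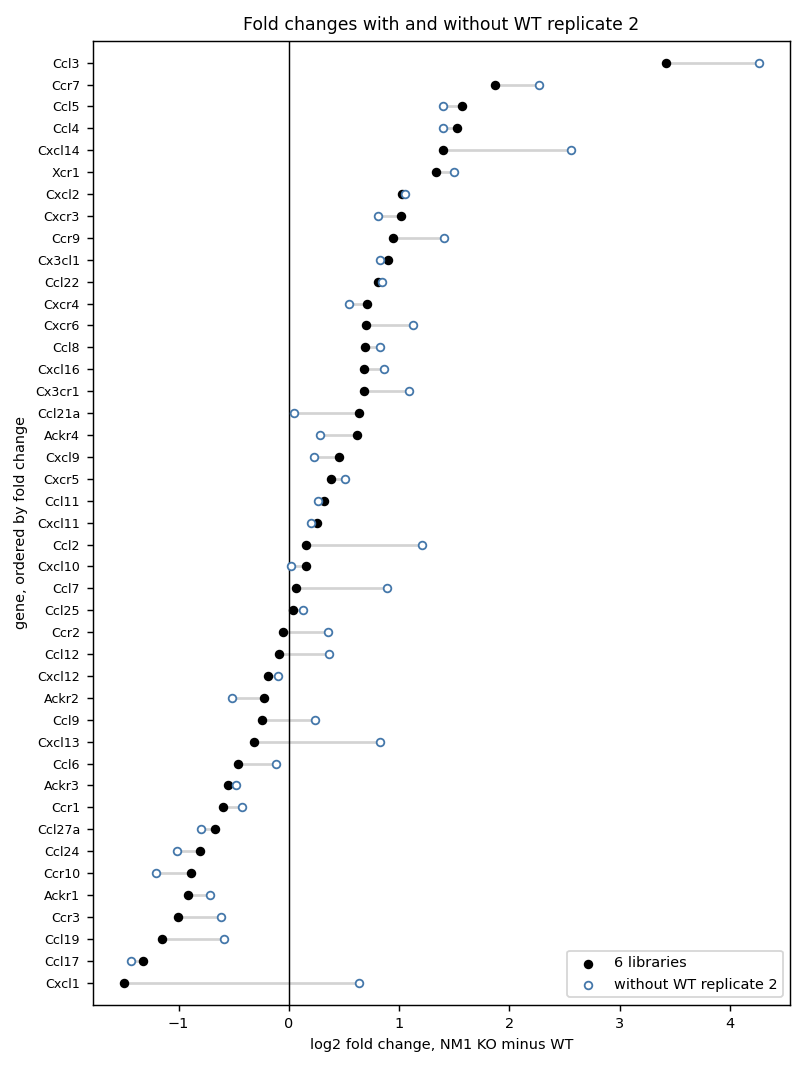
Log2 fold change (NM1 KO minus WT) of 43 of the 44 tested genes with all 6 libraries (filled) and without WT replicate 2 (open), ordered by the first. Cxcl1 moves from -1.49 to 0.64, Cxcl14 from 1.40 to 2.56 and Ccl2 from 0.16 to 1.20, while Cxcl2, Cx3cl1 and Ccl22 hardly move.

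By position, 11 of the tested genes lie within 10 Mb of Myo1c on chromosome 11, the locus of the knockout. Cxcl16 is 5.19 Mb away, and the CC ligand cluster runs from Ccl2 at 6.36 Mb to Ccl4 at 7.99 Mb. Ccl3 was the 1 called gene among these 11, and over all 330 tested genes of the same stretch 6.06% were called. Fold changes within the cluster differed in size and sign. Ccl3, Ccl4 and Ccl5 had log2 fold changes of 3.42, 1.52 and 1.57, and Ccl8 and Ccl11 of 0.69 and 0.32. Ccl6 and Ccl9 were at -0.46 and -0.24, and Ccl2, Ccl7 and Ccl12 at 0.16, 0.06 and -0.09. Effects of the targeted allele, of flanking sequence and of the loss of the protein cannot be told apart in this design.

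Further genes of the pathway were read from a list of 46 chosen by role, all tested. Of these, edgeR called 3 higher (6.52%, against the 4.25% of all tested genes given above) and 0 lower. At an unadjusted p under 0.05 there were 14, 9 higher and 5 lower, where 23.7% of all tested genes were under it. The 3 called genes act downstream of the receptors in leukocytes. Pik3cg, the catalytic subunit of the phosphoinositide kinase that G protein beta-gamma subunits activate, was at 13.9, 11.0 and 10.5 CPM in WT and 39.1, 26.8 and 26.3 CPM in NM1 KO (log2 1.38 ± 0.20, adjusted p = 0.0240). Prkcb, a protein kinase C isoform, was at 9.02, 9.40 and 9.30 CPM in WT and 46.1, 19.7 and 20.5 CPM in NM1 KO (log2 1.64 ± 0.34, adjusted p = 0.0457). Dock2, the leukocyte exchange factor that activates Rac during migration, was at 71.1, 60.9 and 73.9 CPM in WT and 160 (replicate 1), 105 and 115 CPM in NM1 KO (log2 0.88 ± 0.18, adjusted p = 0.0409). All 3 were higher in every NM1 KO library. Each of the 3 lost its call without WT replicate 1, 2 or 3 or without NM1 KO replicate 3 (adjusted p between 0.0595 for Pik3cg and 0.158 for Prkcb), and Dock2 also without NM1 KO replicate 1 (0.0569). Over all genes, the fits without a WT library or without NM1 KO replicate 3 called only between 1 and 37 genes. The fit without NM1 KO replicate 1 called 244. With a correction for GC content and length, neither Dock2 (log2 0.63, adjusted p = 0.0730) nor Prkcb (log2 1.55, adjusted p = 0.0528) was called. Prkcb also missed the threshold with RLE size factors (adjusted p = 0.0504) and with library totals (0.0521), at log2 fold changes of 1.64 and 1.62. Macrophage markers were also higher in NM1 KO, with sums of 2359, 2255 and 2331 CPM in replicates 1 to 3. All 3 genes peaked in NM1 KO replicate 1, the library with the high B cell markers. Leaving out that library gave log2 values of 1.18 for Pik3cg, 1.14 for Prkcb and 0.70 for Dock2. Summed B cell markers were at 278, 48.1 and 28.1 CPM in NM1 KO and between 57.5 and 106 CPM in WT. The part of either marker group in these 3 genes was not tested.

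The lowest p among the negative fold changes of that list belonged to Cmklr1, the chemerin receptor, at 231, 237 and 228 CPM in WT and 145, 206 and 136 CPM in NM1 KO (log2 -0.52 ± 0.17, adjusted p = 0.120). Plcb3, a phospholipase of G protein signalling, was next (log2 -0.37 ± 0.12, adjusted p = 0.135), then Gnai1, an inhibitory G protein subunit (log2 -0.32 ± 0.12, adjusted p = 0.169). Each of these 3 was lower in every NM1 KO library and none was called by edgeR with all 6 libraries. Cmklr1 was called lower by DESeq2 (adjusted p = 0.0376), by limma-voom (0.0249) and by edgeR without NM1 KO replicate 2 (0.0173). By group, 2 of 11 G protein and second messenger genes and 1 of 13 genes of the migration machinery were called, and 0 of 8 chemokine-like ligands and receptors, 0 of 6 desensitisation genes, 0 of 6 glycosaminoglycan carriers and 0 of 2 peptidases, which had 2, 2, 2 and 0 genes at an unadjusted p under 0.05. The shares over all tested genes were 4.25% called and 23.7% at that unadjusted p, and differences from these shares were not tested.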

How the data were processed

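The deposited values are raw read counts per gene, 1 file per library. Per the submitters' processing notes, reads were handled with HISAT2 2.0.4 and HTSeq on GRCm38/mm10, with Trimmomatic 0.36, SAMtools 0.1.19 and FastQC also listed. Their strand setting was not given in the sources used. Of 46603 identifiers, 46091 matched GENCODE M21, and the unmatched ones held 0.0333% of counts. From the counts, edgeR 4.0.16 (R 4.3.3) gave TMM-scaled CPM and a robust quasi-likelihood test of genotype on 15828 genes that passed filterByExpr, with Benjamini-Hochberg adjustment over all of them. Alternatives were other size factors, other filters, non-robust dispersion, DESeq2 1.42.0, limma-voom (limma 3.58.1) with quality weights, a GC and length offset, protein-coding genes alone, a replicate block and leaving out each library. Members, lists and tests were chosen with earlier results of these data known. Values per library are given for called genes, for the 5 members of lowest p in each direction and for a list of well-known members, and other pathway genes are named if called or among the 3 of lowest p in each direction. Genes outside this rule (Ccl4, Ccl11, Ccl22, Ccl24 and others) were added after their values were seen. Total counts of 24677758 to 33537818 per library leave genes of a few reads imprecise, and a count of 0 allows up to 3 counts, for counting error only. Promoters came from RefSeq (GRCm38.p6), with 46 of 63 members matched, and figures were drawn with matplotlib 3.10.9. The counts of members include 1 tested gene that is not reported here by itself.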

Additional observations from a re-analysis of the deposited data

How the results depend on the processing

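The number of genes called moved most with the tool and with single libraries, and the cause was not tested. Over all tested genes 673 were called (4.25%), against 2239 with DESeq2 (14.1%), 1648 with limma-voom (10.4%) and between 1 and 1654 with 1 library left out. For chemokines and receptors the count of 1 became 7 with DESeq2, 4 with limma-voom and between 0 and 3 with 1 library left out. For the other pathway genes the count of 3 became 9 with DESeq2, 8 with limma-voom, 7 without a filter and between 0 and 6 with 1 library left out. The labels do not say that replicate numbers pair the samples. Correlations of same-numbered deviations from the genotype mean were -0.0388, -0.0136 and 0.245. Those of unlike-numbered ones lay between -0.107 and 0.115. These few values cannot settle whether samples were paired. With the replicate as a block 336 genes and 0 members were called, and uncalled log2 fold changes turned sign for Ccl12 (0.067), Cxcl13 (0.00039), Ccr2 (0.0038) and Cxcr5 (-0.049). The block also ended the calls of Ccl3 (log2 3.44, adjusted p = 0.0761), Prkcb (1.52, 0.0748) and Dock2 (0.86, 0.0550), at folds close to those without it. With limma-voom uncalled values turned for Ccl12 (0.31), Ccl9 (0.094), Ccl25 (-0.00056), Cxcl13 (0.34), Ccr2 (0.35) and Cxcr5 (-0.43). Ccl25 also turned with upper-quartile factors (-0.0014). With the GC and length offset Ccl25 was at -0.17, and with that offset and the replicate block it was at -0.15. With 1 library left out, the range of log2 fold changes spanned 0 for Ccl12 (-0.44 to 0.36), Ccl2 (-0.20 to 1.20), Ccl7 (-0.25 to 0.89), Ccl9 (-0.47 to 0.24), Ccl25 (-0.16 to 0.16), Ccl21a (-0.33 to 1.73), Cxcl13 (-0.89 to 0.83), Cxcl1 (-1.98 to 0.64), Cxcl9 (-0.15 to 0.81), Ccr2 (-0.27 to 0.35), Cxcr5 (-0.73 to 0.80) and Ackr2 (-0.55 to 0.052). None of these genes was called with all 6 libraries, and the cause of each turn was not tested. Ccl3 kept its direction in every alternative run. The 19 members that did not pass the filter had few reads in most libraries, and Cxcr2 and Cxcl5 had most of theirs in WT replicate 2.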
